A study of Mus musculus with 24 samples.

Results

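The 6 replicate samples of cells exposed to the same metal alloy did not give the same expression profile, and the account here is of how they differed. It concerns the 6 arrays titled as replicates of the Fe-35Mn alloy, chosen by title, out of 24 arrays in the series. The cells were BALB/3T3 clone A31, a single cloned fibroblast line from embryos of BALB/c mice, and every group came from it. The alloy cells stood for 24 h beneath an insert with 5 mg/ml of iron-manganese alloy powder made by filing and sieving. The 6 manganese samples, used only as the measure of usual spread, received 0.5 mg/ml of pure manganese powder in the same way, so the metals differ in dose as well as in kind. The 6 iron samples, used for their spread alone, received pure iron powder in that way, at a dose between those of manganese and alloy. The 6 control samples had no metal and give the level from which a gene had moved. The titles call all replicates technical and do not say which share a well, so the p-values measure only the spread between these arrays. Replicate numbers carry no order in time or dose, and an order of arrays below is only a ranking by measured level.

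Fibroblasts that sense foreign or misplaced nucleic acid or an inflammatory signal make type I interferon, which acts back on the cells through transcription factors and switches on a shared set of antiviral genes. Damage to proteins and oxidants are met by other programmes: the integrated stress response through ATF4, the unfolded protein response of the endoplasmic reticulum, and NRF2 with its antioxidant enzymes. Cells under such stress often slow their passage through mitosis. The target genes of each programme carry short recognition motifs near their start sites.

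Values are log2 intensities after background correction and normalisation across the arrays, and 13402 genes were bright enough to be tested. A difference of 1 unit is 2-fold in corrected intensity. This intensity includes an added offset of 50, which narrows the folds of dim genes. The 24 arrays had median raw intensities of 61.6 to 75.3, with 36.9% to 43.4% of probes above background, and no pair of arrays held identical values. Of the alloy arrays, replicate 4 was the dimmest, with a median of 61.6 against 68.8 to 72 in the other alloy arrays and a 95th percentile of 1203 against 1944 to 2222. Of the defining fibroblast markers 9 of 12 were measured, at a mean level of 9.85 to 10.06 in alloy arrays and 10.56 to 10.74 in control arrays, and Vim, Dcn and Thy1 were above background on all 6 alloy arrays. Macrophage markers were near background: 5 of 15 were measured, at a mean level of 7.02 to 7.15 in alloy arrays and 7.28 to 7.4 in control arrays, and Lyz2 was above background on 0 of 6 alloy arrays.

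The typical gene varied more among alloy arrays than among manganese arrays. Over all genes the SD had a median of 0.146 log2 units in the 6 alloy arrays and 0.0835 in the 6 manganese arrays, and the SD was larger in alloy for 10995 genes (82%). The median ratio of the SDs, alloy over manganese, was 1.77. The control arrays, at 0.0762, and the iron arrays, at 0.0767, lay close to manganese. The excess was steepest at the top: 369 genes had an SD of at least 0.5 over the alloy arrays against 5 over the manganese arrays, and 33 genes against 3 reached an SD of 1. Counted as a range, the highest array exceeded the lowest at least 2-fold for 786 genes in alloy and 13 in manganese, and at least 8-fold for 14 and 2 genes.

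**Figure D1:**
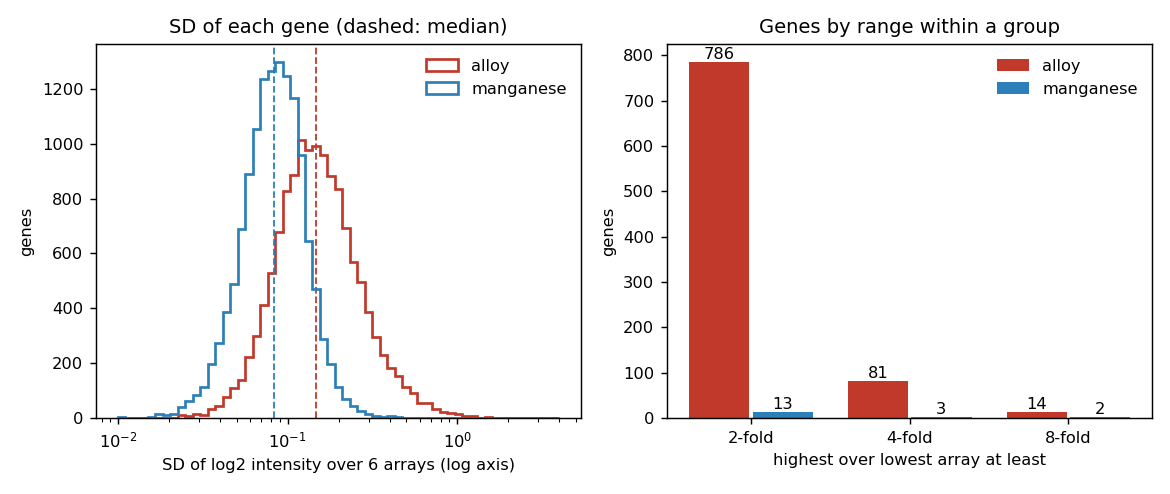
Left, the number of genes (vertical axis) by their SD in log2 units over 6 arrays (horizontal log axis), with dashed lines at the medians of 0.146 for alloy and 0.0835 for manganese. Right, bars count genes whose highest array exceeds the lowest at least 2-fold, 4-fold or 8-fold; the alloy bars reach 786, 81 and 14 and the manganese bars 13, 3 and 2.

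A test of spread, limma on each array's absolute deviation from its group mean with Benjamini-Hochberg adjustment at 0.05, called 1098 genes with a larger spread in alloy (8.19% of those tested) and 9 with a smaller one (0.0672%). At an unadjusted p under 0.05 the counts were 3523 and 81. The count of larger spreads moved widely with single arrays. It was 79 without alloy replicate 1 and 88 without alloy replicate 3, but 2114, 1916, 1626 and 1808 without alloy replicates 2, 4, 5 and 6. Leaving out a manganese array gave 327 and 195 for replicates 1 and 2, 45, 29 and 37 for replicates 3, 4 and 5, and a number between these for replicate 6. Without manganese replicate 3, 4 or 5 at most 1 gene of any list below was called, and without replicate 6 at most 3, so the counts for lists are lost there too. Deviations from the group median called 39 genes and squared deviations 4, while an F test of the variances called 1286, of which 740 were among the 1098. For this reason many calls below are given with the number of the 12 fits that leave out 1 array in which they held. Among called genes named below without this number, Gsta2 and Car9 held in 2 of the 12 and Calr in 3. Tk1, Pdk1, Lox, Timp3 and Ddit3 held in 4, and Plk2, Bbc3 and H3c3 in 7. The call held in all 12 for 23 genes, among them Slc11a2, the transporter DMT1 that carries iron and manganese. Slc11a2 read 9.41, 8.68, 9.59, 9.34, 8.49 and 8.77 in alloy replicates 1 to 6, against 8.59 to 8.83 in manganese arrays and 8.17 to 8.43 in control arrays (limma adjusted p = 0.0126). Replicates 1, 3 and 4 lay above every manganese array. Also among the 23, and picked out after their values were seen, were Dhx58, a helper of RNA sensing, Socs3, a feedback inhibitor of cytokine signalling, and Ticam1, an adaptor of Toll-like receptors.

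The gene with the widest called range was Ccl4, a chemokine that draws monocytes. Its level was 12.11, 8.6, 13.04, 9.19, 7.84 and 8.77 in alloy replicates 1 to 6, against a lowest, median and highest of 8.8, 9.34 and 9.51 in manganese arrays. Control arrays read 5.89 to 6.09, and Ccl4 was above background on 0 of 6 of them. Replicates 3 and 1 stood well above every manganese array and replicate 5 well below, and the alloy range was 36.8-fold against 1.64-fold in manganese. The SD was 2.12 in alloy and 0.268 in manganese (limma adjusted p = 0.0207), and the call held in 6 of the 12 fits that leave out 1 array.

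Of the 20 called genes with the largest SD, 4 are on the list of interferon-stimulated genes: Oasl1, Rsad2, Cmpk2 and Mx2. Oasl1, an interferon-induced relative of the oligoadenylate synthetases, read 10.93, 8.28, 11.68, 8.98, 7.65 and 8.27 in alloy replicates 1 to 6, against 8.93, 9.14 and 9.36 (lowest, median, highest) in manganese arrays and 6.22 to 6.44 in control arrays. Rsad2, the antiviral enzyme viperin, read 13.09, 10.47, 13.7, 11.37, 10.08 and 10.39 in alloy arrays, against 11.29, 11.47 and 11.68 in manganese arrays and 7.4 to 7.74 in control arrays. For both genes replicates 3 and 1 lay above all manganese arrays and replicates 2, 5 and 6 below all of them, while every alloy array lay above every control array. Their SDs were 1.63 and 1.53 in alloy and 0.151 and 0.134 in manganese (limma adjusted p = 0.0218 and 0.0221). Each was called in 6 of the 12 fits that leave out 1 array.

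Cxcl10, a chemokine induced by interferon, and Ccl5, which attracts T cells, ranked the arrays alike at the top. Cxcl10 read 11.8, 9.34, 13.13, 10.5, 9.32 and 9.61 in alloy replicates 1 to 6, against 10.56 to 11.08 in manganese arrays and 6.87 to 7.3 in control arrays. Ccl5 read 14.31, 12.28, 14.93, 12.81, 11.3 and 11.98, against 12.08 to 12.78 in manganese arrays and 8.84 to 9.19 in control arrays. The range within alloy was thus 14-fold for Cxcl10 and 12.4-fold for Ccl5, against 1.44-fold and 1.62-fold in manganese (limma adjusted p = 0.0326 and 0.0368, each held in 4 of 12 fits). Cd274, the immune checkpoint ligand PD-L1, ranged 7.54-fold in alloy and 1.16-fold in manganese, a call held in 7 of 12 fits. Cd74, the invariant chain of antigen presentation, ranged 9.35-fold in alloy and 1.39-fold in manganese, held in 4 of 12.

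The wider list of inflammatory chemokines and NF-kB targets was less uniform. Of 20 measured, 7 (35%) were called with a larger spread, against 8.19% of all genes. The count was 0 without alloy replicate 1 or 3 or manganese replicate 3, 4, 5 or 6. It was 2 without manganese replicate 1 or 2. The list mean deviated by 0.22, -0.22, 0.59, -0.16, -0.2 and -0.22 in alloy replicates 1 to 6, and its SD of 0.333, against 0.057 in manganese, was 0.189 without replicate 3. Nfkbie and Nfkbiz, inhibitors within the NF-kB pathway, stayed within 1.11-fold and 1.14-fold in alloy.

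The 31 measured interferon-stimulated genes mostly shared their highest array. Of them 22 (71%) were called with a larger spread in alloy and 0 with a smaller one, against 8.19% of all genes, and the SD was larger in alloy for every one of the 31. Their median SD was 0.672 in alloy and 0.0867 in manganese. Replicate 3 was the highest array for 30 of the 31, against 2954 of all 13402 genes, with Rtp4 as the exception, where replicate 1 was highest. The mean of the 31 genes deviated from its 6-array mean by 0.46, -0.53, 1.13, -0.07, -0.51 and -0.48 in alloy replicates 1 to 6, a 3.16-fold range against 1.08-fold in manganese. This mean had an SD of 0.674 in alloy and 0.0448 in manganese, and of 0.429 in alloy without replicate 3. Of the 31, 2 were called without alloy replicate 1, 5 without alloy replicate 3, and 1 without manganese replicate 3, 4 or 5. Deviations from the group median called 1 of them and squared deviations 0. Under median scaling and with no normalisation between arrays replicate 3 was still the highest for the list and the dim replicate 4 became the lowest.

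Within the list the SD ran from 1.63 to 0.232. Cmpk2, encoded next to Rsad2, had an SD of 1.18, Mx2, an antiviral GTPase, 1.02, Ifit2 0.887 and Ifit3 0.774, the last pair being inhibitors of viral translation. Stat2 and Irf9, transcription factors that act downstream of the interferon receptor, had SDs of 0.672 and 0.232, and Irf7, which amplifies the response, 0.608 with an adjusted p of 0.05 that just misses the threshold. Irf9 spanned only 1.49-fold, although its manganese SD of 0.0366 was small enough for it to be called (limma adjusted p = 0.0217, held in 6 of 12 fits). Bst2, the tetherin that holds virions at the membrane, had SDs of 0.487 in alloy and 0.424 in manganese and was not called. Oas1a, Oas1g and the Gbp and Ifit genes belong to families of near-identical copies, whose probes may share signal.

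The promoters of such genes are known for the interferon-stimulated response element, searched here on both strands as GAAA, any 2 bases and GAAA, in the 250 bases before and 50 after each RefSeq start (build GRCm38.p6). It was present for 12 of the 23 list genes with a promoter searched (52.2%), against 1079 of the 27025 genes searched (3.99%). The promoters of Rsad2 and Ifit3 are shown because they carry the element beside genes that ranked the arrays alike. Capitals mark the matches, which lie on the minus strand relative to the gene and are so read as the reverse complement. Rsad2 lies at chr12:26456403-26456702 on the minus strand, with its match starting 120 bases before the start. Ifit3 lies at chr19:34583279-34583578 on the plus strand, with 2 matches before the start.
Rsad2: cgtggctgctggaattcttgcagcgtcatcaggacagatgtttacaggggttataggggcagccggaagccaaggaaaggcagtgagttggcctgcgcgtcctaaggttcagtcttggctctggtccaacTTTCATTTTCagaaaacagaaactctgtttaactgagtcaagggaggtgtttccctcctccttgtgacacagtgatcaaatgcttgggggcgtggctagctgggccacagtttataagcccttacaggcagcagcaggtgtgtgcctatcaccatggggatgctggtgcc
Ifit3: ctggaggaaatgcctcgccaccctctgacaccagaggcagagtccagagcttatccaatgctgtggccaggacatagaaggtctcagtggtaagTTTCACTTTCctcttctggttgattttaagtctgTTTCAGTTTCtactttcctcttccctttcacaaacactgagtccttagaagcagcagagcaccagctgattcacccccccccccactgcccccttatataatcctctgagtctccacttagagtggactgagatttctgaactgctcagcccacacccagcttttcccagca
Neither match overlaps another motif searched here, and a match is a description of letters, not of binding.

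The integrated stress response and NRF2 targets also had their highest list means in replicates 3 and 1 and their lowest in replicate 5. Under median scaling and with no normalisation between arrays replicates 3 and 1 stayed highest for both, and the dim replicate 4 became the lowest. Relative to the mean of all genes replicate 5 was still the lowest there. The interferon list mean was low in replicates 2, 5 and 6 alike, with deviations of -0.53, -0.51 and -0.48. Of 37 measured genes of the integrated stress response 7 (18.9%) were called with a larger spread, against 8.19% of all genes. A smaller spread was called for 0, and the median SD was 0.241 in alloy and 0.085 in manganese. The list mean deviated by 0.18, -0.09, 0.31, 0.04, -0.32 and -0.11 in alloy replicates 1 to 6, a 1.54-fold range against 1.06-fold in manganese. Atf3, a stress-induced repressor, read 11.09, 9.33, 11.4, 10.31, 8.24 and 9.09 in alloy arrays, against 9.07, 9.31 and 9.62 (lowest, median, highest) in manganese arrays and 6.29 to 6.54 in control arrays. Replicates 1, 3 and 4 lay above all manganese arrays and replicate 5 below all of them (limma adjusted p = 0.0221, held in 6 of 12 fits). Ppp1r15a, the GADD34 subunit that reverses eIF2 alpha phosphorylation, ranged 7.28-fold in alloy and 1.4-fold in manganese, and Ddit3, the factor CHOP, 2.75-fold and 1.1-fold. In contrast, the ATF4 target Asns, asparagine synthetase, ran only from 13.98 to 14.25 in alloy arrays while control arrays read 13.1 to 13.29. Gars, glycyl-tRNA synthetase, ran from 14.86 to 15.11 in alloy arrays and 14.17 to 14.3 in control arrays, so for these 2 every alloy array lay above every control array with little spread. None of the 37 was called without alloy replicate 1 or 3. The spread of their mean, an SD of 0.225 in alloy and 0.0334 in manganese, stayed between 0.18 and 0.25 when any 1 alloy array was left out.

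NRF2 targets ranked the arrays in the order 3, 1, 4, 2, 6, 5, with list deviations of 0.28, -0.09, 0.41, 0.07, -0.44 and -0.22 in alloy replicates 1 to 6. Of 29 measured, 9 (31%) were called with a larger spread, against 8.19% of all genes. The count was 1 without alloy replicate 1 and 0 without replicate 3. Hmox1, heme oxygenase 1, which releases iron from heme, read 13.25, 12.16, 13.93, 13.09, 11.2 and 11.71 in alloy arrays, against 11.28, 11.51 and 11.85 in manganese arrays and 9.07 to 9.36 in control arrays. Here 4 alloy arrays lay above every manganese array, replicate 6 within their range and replicate 5 below it (limma adjusted p = 0.0224, held in 6 of 12 fits). Gsta2, a glutathione transferase, ranged 4.24-fold in alloy and 1.36-fold in manganese. Its near-copy Gsta1 ranged 4.47-fold in alloy without passing the test (limma adjusted p = 0.0818), and the probes of the pair may share signal. Fth1, the ferritin heavy chain, stayed within 1.28-fold, and Nqo1, a quinone reductase, within 1.46-fold. Of lysosome and autophagy genes 8 of 35 (22.9%) were called, against 8.19% of all genes. Among the 8 was Npc1, the lysosomal cholesterol transporter, at 2.31-fold in alloy and 1.17-fold in manganese. Without alloy replicate 1 or 3 the count was 1 of the 35.

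Chaperones of the endoplasmic reticulum were highest in replicate 3. Without Pdia3, described later, the 18 remaining genes deviated by 0.13, -0.19, 0.56, -0.06, -0.24 and -0.2 in alloy replicates 1 to 6. Replicate 3 was highest for 15 of these 18, against 2954 of all 13402 genes. Hspa5, the master chaperone BiP, read 8.59, 7.68, 9.44, 7.81, 7.4 and 7.78 in alloy arrays, against 7.43, 7.59 and 7.82 in manganese arrays and 6.8 to 7.02 in control arrays. Replicates 3 and 1 alone lay above the manganese range (limma adjusted p = 0.0465, held in 4 of 12 fits). Dnajb9, the co-chaperone ERdj4, had an SD of 0.875 in alloy and 0.0357 in manganese, and Xbp1, the spliced transcription factor of this response, 0.58 and 0.0606. Of the 19 genes 6 (31.6%) were called, against 8.19% of all genes, and 0 without alloy replicate 1 or 3. Herpud1 and Dnajc3 did not vary with them, at 1.27-fold and 1.14-fold in alloy.

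The element of this response is CCAAT followed after any 9 bases by CCACG. It was found for 7 of 18 list genes with a promoter (38.9%) and for 37 of the 27025 genes searched (0.137%). Hspa5, the chaperone described above, is shown as 1 of the 3 called genes with a match. Its promoter lies at chr2:34771840-34772139 on the plus strand, with the match in capitals starting 65 bases before the start.
Hspa5: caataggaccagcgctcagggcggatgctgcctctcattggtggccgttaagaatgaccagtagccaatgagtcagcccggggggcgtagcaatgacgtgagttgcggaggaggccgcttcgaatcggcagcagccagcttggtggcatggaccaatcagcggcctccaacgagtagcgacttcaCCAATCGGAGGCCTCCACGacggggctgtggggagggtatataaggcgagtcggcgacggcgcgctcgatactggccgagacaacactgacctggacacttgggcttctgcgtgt
The matching genes included Calr, Hspa5 and Syvn1, which were called, and Dnajc3, which was steady. The ATF4 composite element TGATGNAA was found for 12 of 32 integrated stress response genes (37.5%) and 4.51% of all genes searched. The antioxidant element TGACNNNGC was found for 8 of 25 NRF2 targets (32%) and 14% of all genes searched.

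**Figure D2:**
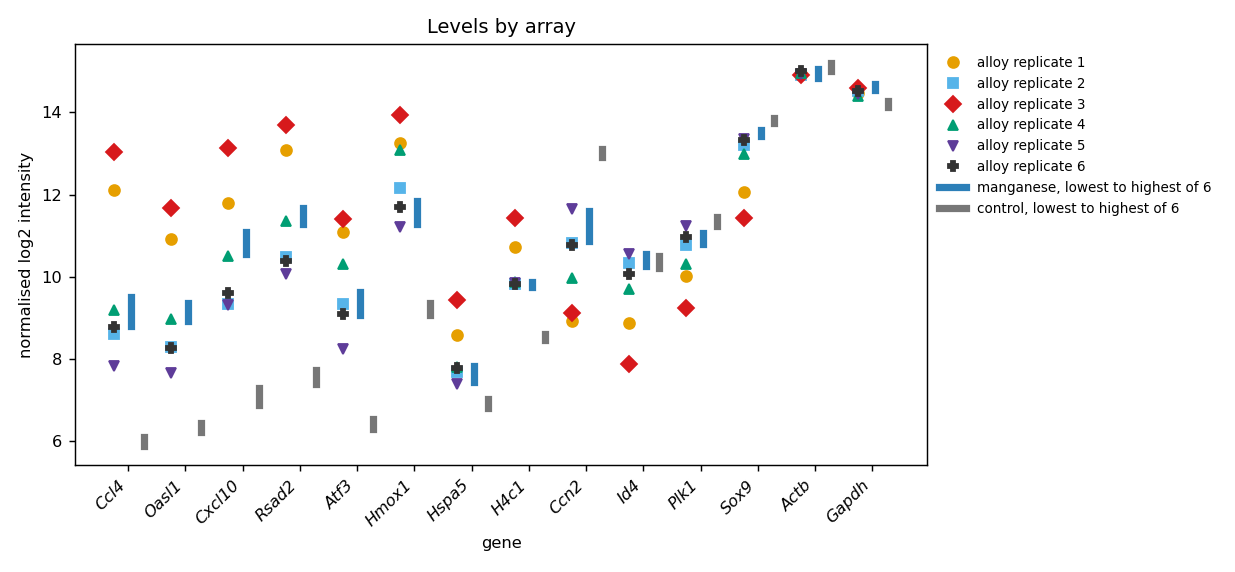
Normalised log2 intensity (vertical axis) of 14 genes, with the 6 alloy arrays as symbols by replicate, then bars from the lowest to the highest of the 6 manganese arrays and of the 6 control arrays. Replicate 3 is the top symbol from Ccl4 to H4c1, the replicates are reversed from Id4 to Sox9, and the symbols coincide for Actb and Gapdh.

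Transcripts of replication-dependent histones, which normally lack a poly(A) tail, formed another variable group. Of 23 measured, 14 (60.9%) were called with a larger spread, against 8.19% of all genes. The median SD of the 23 was 0.446 in alloy and 0.0819 in manganese. H4c1, a histone H4 gene, read 10.73, 9.83, 11.44, 9.88, 9.86 and 9.82 in alloy replicates 1 to 6, against 9.76, 9.8 and 9.87 in manganese arrays and 8.47 to 8.6 in control arrays. Replicates 3 and 1 stood well above the manganese range and the other 4 lay in or just beside it (limma adjusted p = 0.0226, held in 5 of 12 fits). H3c3 and H3c1, both histone H3 genes, ranged 3.29-fold and 3.07-fold in alloy. The list mean deviated by 0.21, -0.11, 0.42, -0.23, -0.16 and -0.14, so that here the dim replicate 4 was lowest. The part of its dimness in this was not tested. None of the 23 was called without alloy replicate 1 or 3, and histone genes are close copies whose probes may share signal.

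Mitotic genes ran the other way. Of 29 measured, 8 (27.6%) were called with a larger spread, against 8.19% of all genes. Replicate 3 was the lowest array for 25 of the 29, against 3705 of all 13402 genes. The list mean deviated by -0.18, 0.17, -0.52, -0.01, 0.29 and 0.25 in alloy replicates 1 to 6. Plk1, a kinase that drives entry into and passage through mitosis, read 10.01, 10.77, 9.25, 10.32, 11.24 and 10.98 in alloy arrays, against 10.8, 10.86 and 11.06 in manganese arrays and 11.24 to 11.45 in control arrays. Replicates 3, 1 and 4, and by a little replicate 2, lay below all manganese arrays, and replicate 5 reached the control range (limma adjusted p = 0.0392, held in 3 of 12 fits). Cenpa, the centromeric histone, Cdk1, the mitotic kinase, and Aurka, a spindle kinase, ranged 2.51-fold, 2.12-fold and 2.04-fold in alloy. Their mean had an SD of 0.308 in alloy, or 0.194 without alloy replicate 3, and 0.031 in manganese, and 2 genes were called without that replicate. Without alloy replicate 1 the count was 0. Genes of DNA replication were steadier: 1 of 35 was called, Tk1, thymidine kinase, at 3.53-fold in alloy and 1.16-fold in manganese. The letters TTTGAA, the core of a cell-cycle element, were found for 21 of 25 mitotic genes with a promoter (84%) and 20.2% of all genes searched.

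Ccn2, Sox9 and Id4, named for their SD or loading, were highest in replicate 5 and lowest in replicate 3 or 1. Ccn2, a matrix protein induced by YAP and TGF-beta, read 8.93, 10.82, 9.12, 9.96, 11.64 and 10.77 in alloy replicates 1 to 6, against 10.86, 11.1 and 11.6 in manganese arrays and 12.92 to 13.12 in control arrays. Replicate 5 lay just above the manganese range, the other 5 lay below it, and every alloy array was below every control array (limma adjusted p = 0.0328, held in 4 of 12 fits). Sox9, a factor of cartilage and of progenitor cells, read 12.07, 13.21, 11.43, 12.98, 13.36 and 13.33, all below the manganese range of 13.43 to 13.58 and the control range of 13.74 to 13.86 (limma adjusted p = 0.0218, held in 6 of 12 fits). Id4, an inhibitor of helix-loop-helix factors, read 8.87, 10.34, 7.88, 9.71, 10.56 and 10.06, while manganese arrays read 10.27 to 10.55 and control arrays 10.22 to 10.5. Replicate 5 lay just above both ranges and replicate 3 was 6.39-fold lower than replicate 5 (limma adjusted p = 0.0332, held in 4 of 12 fits). Cxcl12, a chemokine of stromal cells, ranged 5.97-fold in alloy, Synpo, an actin-binding protein, 5.5-fold, and Vim, the fibroblast filament vimentin, 2.46-fold, with calls held in 4, 4 and 5 of 12 fits.

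The extracellular matrix list was mixed: replicate 3 was the lowest array for 15 of its 33 measured genes and the highest for 8. Over all 13402 genes replicate 3 was the lowest for 3705 and the highest for 2954. The list mean ranged 1.24-fold in alloy and 1.06-fold in manganese. Of the 33, 5 (15.2%) were called, against 8.19% of all genes. Among the 5 were Lox, the collagen crosslinking oxidase, and Timp3, a metalloproteinase inhibitor, at 2.98-fold and 3.08-fold in alloy. Prelp, a leucine-rich matrix protein, ranged 5.44-fold without passing the test (limma adjusted p = 0.0701), and Bgn, biglycan, stayed within 1.1-fold. The list had 1 call without alloy replicate 3 and 0 without replicate 1. Hypoxia-response genes split: Ndrg1 ranged 2.72-fold with replicate 3 highest, while Car9, a carbonic anhydrase, and Pdk1, which curbs pyruvate oxidation, ranged 2.65-fold and 2.63-fold with replicate 3 lowest. In all 6 of 20 (30%) were called, against 8.19% of all genes, and 0 without alloy replicate 1 or 3. The hypoxia list mean ranged only 1.21-fold.

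Immediate early genes, the first to answer a growth or stress signal, also divided. Of 24 measured, 9 (37.5%) were called with a larger spread, against 8.19% of all genes. The list mean still ranged only 1.2-fold, and its members moved in opposite directions. Atf3 followed the stress genes. Egr1, a growth-induced zinc finger factor, read 10.4, 11.35, 9.69, 11.05, 11.47 and 11.46 in alloy replicates 1 to 6, against 11.55 to 11.87 in manganese arrays and 11.47 to 11.55 in control arrays. Its relative Egr3 read 8.86, 9.84, 7.73, 9.63, 9.77 and 10.07, against 9.94 to 10.1 in manganese arrays and 8.64 to 8.94 in control arrays, so replicate 3 lay below the control range that replicates 2, 4, 5 and 6 exceeded. Both were called (limma adjusted p = 0.0343 and 0.0339, each held in 4 of 12 fits), and none of the list was called without alloy replicate 1 or 3. Fosl2, a partner of JUN, stayed within 1.06-fold in alloy.

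Of 19 p53 targets 3 (15.8%) were called, against 8.19% of all genes, and the list mean ranged 1.29-fold in alloy, in the order 3, 1, 4, 2, 6, 5, and 1.03-fold in manganese. Gadd45a, a growth arrest gene, ranged 4.21-fold in alloy and 1.18-fold in manganese, and Plk2 and Bbc3, a stress kinase and the death inducer PUMA, 2.34-fold and 2.26-fold in alloy. Cdkn1a, the cell cycle inhibitor p21, stayed within 1.43-fold. Avil, an actin-severing protein, read 11.44, 10.33, 11.9, 10.72, 9.05 and 9.56 in alloy replicates 1 to 6, against 10.05 to 10.47 in manganese arrays and 6.3 to 6.51 in control arrays. Krt16, a keratin of stressed epidermis, read 10.95, 9.32, 11.38, 9.89, 8.58 and 9.74 in alloy arrays, against 9.21 to 9.71 in manganese arrays and 6.31 to 6.55 in control arrays, without passing the test (limma adjusted p = 0.0679). The call of Avil (limma adjusted p = 0.0361) held in 3 of 12 fits, that of Gadd45a (limma adjusted p = 0.0332) in 4. Both Avil and Krt16 ranked replicate 3 first and replicate 5 last. Of the epithelial and keratinocyte markers 5 of 12 were measured, 0 of them called with a larger spread. Their mean level was 7.2 to 7.97 in alloy arrays and 6.59 to 6.64 in control arrays, and it ranged 1.71-fold in alloy and 1.14-fold in manganese. Krt14, a keratin of basal epidermis, read 8.36, 7.67, 8.36, 7.81, 7.53 and 7.87 in alloy arrays, against 7.45 to 7.74 in manganese arrays and 6.52 to 6.72 in control arrays (limma adjusted p = 0.0597). The defining markers Cdh1 and Krt8 stayed within 1.24-fold and 1.05-fold in alloy, at levels of at most 6.83, and Krt8 was called steadier in alloy, as given below.

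Some programmes had few or no calls, against 8.19% of all genes. Cytosolic ribosomal proteins had 0 of 38 genes called, a median SD of 0.0914 in alloy and 0.065 in manganese, and a list mean that ranged 1.04-fold in alloy and 1.07-fold in manganese. Proteasome subunits had 0 of 27 and ribosome biogenesis 0 of 28, and the respiratory chain 1 of 42 (2.38%). Ribosome biogenesis still had a median SD of 0.146 in alloy, the same as all genes, and 0.0941 in manganese. Heat shock proteins, the cytosolic answer to misfolded protein, had 1 of 17 (5.88%), near the share of all genes, with Hspa8 within 1.14-fold. Mt1, a metallothionein that binds excess metal, ran from 12.76 to 13.05 in alloy arrays, above the 12.35 to 12.61 of manganese arrays and below the 13.22 to 13.34 of control arrays. Actb and Gapdh, a cytoskeletal actin and a glycolytic enzyme, stayed within 1.07-fold and 1.14-fold in alloy.

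**Figure D3:**
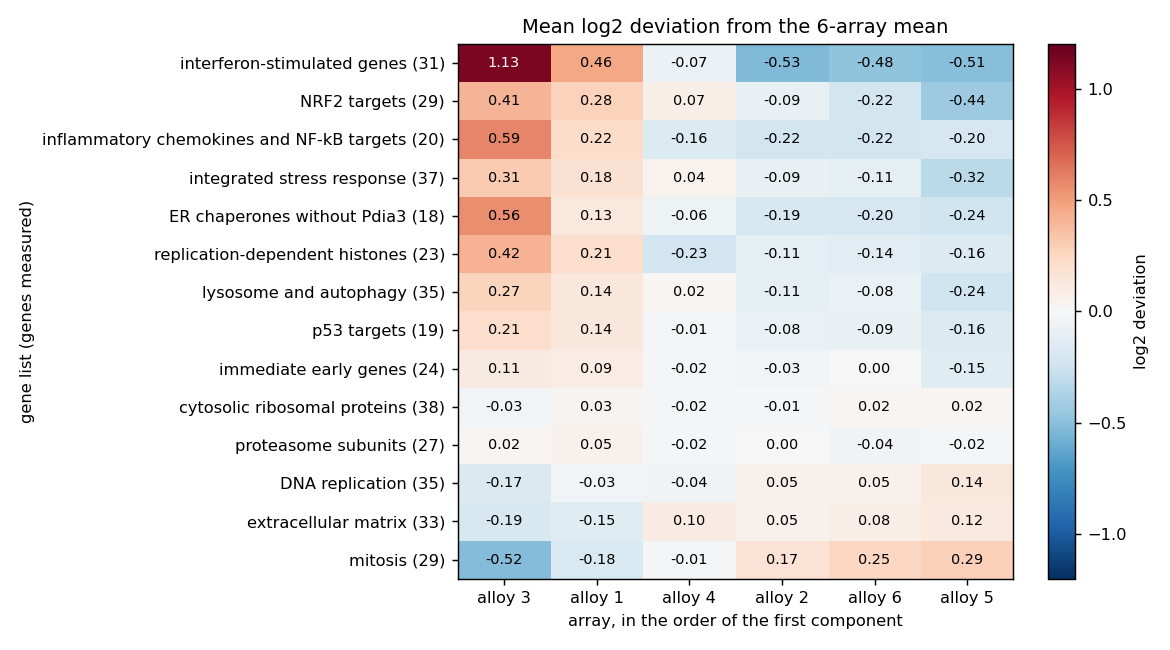
Mean log2 deviation of 14 gene lists (rows, with the number of genes measured) from the mean of the 6 alloy arrays, with arrays in columns by their score on the first component. The interferon row runs from 1.13 in replicate 3 to -0.53 in replicate 2, the mitosis row from -0.52 in replicate 3 to 0.29 in replicate 5, and the ribosomal protein row stays within 0.03 of 0.

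A single axis held most of this variation. The first principal component of the 6 alloy arrays carried 65.9% of their variance, the second 17.1% and the third 9.49%, while over the manganese arrays the first 3 carried 36.9%, 23% and 15.9%. Alloy replicates 1 to 6 scored 17.4, -11.4, 32.9, -4, -20.9 and -14 on it, which places them in the order 3, 1, 4, 2, 6, 5. Its strongest positive loadings were those of Ccl4, Oasl1, Cxcl10, Rsad2 and Slc6a12, a betaine transporter. Its strongest negative ones were those of Id4, Ccn2 and Synpo and of Maged1 and Pdia3. Maged1 and Pdia3 each had a single low reading in replicate 1, as given below, with raw intensities of 10.79 and 11.09. On the second component replicate 4 stood apart at 20.6, with the other scores between -8.4 and 0.5. Replicate 4 is also the dim array, and under median scaling or with no normalisation it headed the first component, which then held 47.3% or 58.7%, and the mean of all genes in it deviated from the alloy mean by -0.31 or -0.43. Among the named genes with loadings on the second component, Fgfr1, a growth factor receptor, was highest in replicate 4 at 9.89 against 8.47 to 8.97 in the other alloy arrays. Vamp2, a vesicle SNARE, was lowest there at 7.52 against 8.28 to 8.54. The part of brightness in these values was not tested.

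**Figure D4:**
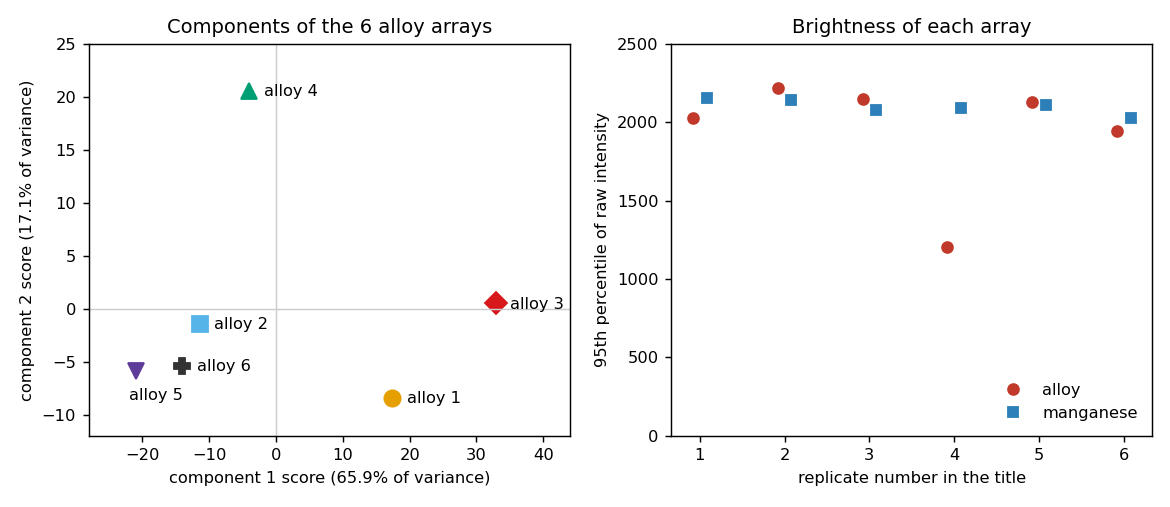
Left, scores of the 6 alloy arrays on the first component (horizontal, 65.9% of variance) and the second (vertical, 17.1%); replicates 3 and 1 lie to the right and replicate 4 alone at the top. Right, the 95th percentile of raw intensity (vertical) by replicate number for alloy and manganese arrays; alloy replicate 4 reads 1203 and the other arrays 1944 to 2222.

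The genes of largest SD weigh most in the first component, so their ranking of the arrays is a description and not separate evidence for its order. Of the 369 genes with an alloy SD of at least 0.5, 94 (25.5%) ranked the arrays exactly 3, 1, 4, 2, 6, 5 from high to low, and 66 (17.9%) in the exact mirror image. Over all 13402 genes these orders took 2.28% and 2.51%. Replicate 3 was the highest or lowest array for 94.3% of the 369 genes and replicate 5 for 70.2%, against 49.7% and 37.8% of all genes. Grouped by correlation over the 6 arrays, 232 of the genes (62.9%) were high in replicate 3 and 35.5% low in it, with median deviations in replicate 3 of 1.03 and -0.94. In the first group all 6 alloy arrays lay above all 6 control arrays for 178 of 232 genes (76.7%), against 15.3% of all genes. In the second all lay below all controls for 81 genes (61.8%), against 17.6% of all. The groups were cut from the same arrays, so these counts describe them and carry no test. Of the interferon list 24 genes fell in the first group and 0 in the second, and of the mitosis list 0 and 6.

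Single arrays set the spread of a few genes. A value over 2 log2 units below the other 5 arrays occurred for 2 genes in alloy, Maged1 and Pdia3, and for 3 in manganese. Maged1, an adaptor of neurotrophin and cell death signalling, had an SD of 2.95 over the alloy arrays, the largest of the named genes, from raw intensities of 10.8 in replicate 1 and 4622 to 9955 in the other 5. Pdia3, a disulfide isomerase of the endoplasmic reticulum, read 11.1 in replicate 1 and 3740 to 7588 in the others. Neither passed the test of spread (limma adjusted p = 0.0936 and 0.117). Klhl15, a substrate adaptor of a ubiquitin ligase, stood at 5.65 in replicate 1 and 7.45 to 8.17 in the others on the log2 scale. Less far from the rest, in replicate 4, Gins1, a subunit of the replicative helicase, read 7.89 against 8.97 to 9.67, and Npepl1, an aminopeptidase, 9.84 against 10.76 to 11.34. In none of these 5 genes was replicate 3 the lowest or the highest array.

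Few genes were steadier in alloy than in manganese. Of the 9 called, Zfp507, a zinc finger protein, had SDs of 0.0256 in alloy and 0.164 in manganese, and Krt8, a keratin of simple epithelia, 0.0233 and 0.139 (limma adjusted p = 0.0388 and 0.0275). Crebbp, a histone acetyltransferase, had 0.2 and 0.388 (limma adjusted p = 0.0391). No gene was called with a smaller spread without alloy replicate 1 or 3 or without manganese replicate 3, 4 or 5.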

How the data were processed

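Mouse bead arrays from Illumina measured the total RNA of 24 samples, which the labels' protocols say was amplified to biotin cRNA. The authors deposited a linear intensity for each of 45281 probes, not normalized per the file headers, beside their own normalized log2 values by probe and by symbol. That scale is read from the values. Tools listed in the submitters' processing notes are lumi and RMA, without their role.

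From the non-normalized intensities, limma 3.58.1 (R 4.3.3) gave normexp background correction with an offset of 50 and quantile normalisation over the 24 arrays. A probe was above background where its log2 intensity passed the level that 1% of a normal background would exceed. That background was centred on the array's mode, and its width came from the values under the mode. Probes above it on at least 6 arrays were kept (20205), and the probe with the highest mean stood for its gene (13402 genes). Names came from the platform annotation (34885 probes with 1 gene, 18 with several, left out, and 10378 not listed) and RefSeq symbols of GRCm38.p6. The 3187 genes with only an array or locus name were tested but not named. In 5530 probes the order within a symbol differs between the deposited tables. Promoters on chromosome 18 were left out of the motif search.

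The spread test fitted limma's lmFit and eBayes to absolute deviations from the group mean, scaled for n, in 6 alloy against 6 manganese arrays, two-sided, with Benjamini-Hochberg adjustment over all genes at 0.05. It was run on simulated normal values drawn for each gene on its own, which does not cover variation shared between genes. Principal components used gene-centred values, and genes with an alloy SD of at least 0.5 were clustered into 4 groups by 1 minus Pearson correlation with average linkage. Named genes were the 20 largest SDs among called genes, the 5 strongest loadings at each end of 2 components, the 3 largest and 2 smallest SDs of each of 32 lists, up to 5 genes called steadier, a fixed set and the 8 largest SDs of each cluster. Further members of the lists were named after their values were seen. The members and lists were chosen with earlier results of these data known. Alternatives changed the normalisation, background, filter, probe choice, test and comparison group, used the authors' normalized values, or left out 1 array. The number of arrays limits the precision. Promoter sequences were taken from RefSeq (GRCm38.p6), with Python 3.11.15, NumPy 2.4.6, pandas 2.3.3 and Matplotlib 3.10.9 for matching and plotting.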

Additional observations from a re-analysis of the deposited data

Results flagged for a closer look

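In a group of 6, an array stood far from the rest when its gap to the nearest array over the group's range passed Dixon's 95% critical value. Among 195 named genes this held for 12 in alloy and 9 in manganese, and over all 13402 genes for 5.92% and 5.42%, close to the 1 in 20 that chance gives.

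In alloy, replicate 1 was alone at the low end for Maged1 (gap over range 0.894), Pdia3 (0.847) and Klhl15 (0.715). Replicate 4 was alone at the high end for Steap3 (0.702), an iron reductase, at 10.2 against 8.88 to 9.27, for Fgfr1 (0.652), Pcbp2 (0.641) and Aldoa (0.628), and at the low end for Vamp2 (0.751) and Lamtor1 (0.662). The same array was dim in its 95th percentile (0.727) and its median intensity (0.688). Replicate 3 was alone for Kitl (0.655, high), Neat1 (0.642, high) and Eng (0.644, low), and high in the mean of the endoplasmic reticulum chaperones (0.712), at 10.73 against 9.99 to 10.2. Without Pdia3, near background in replicate 1, that ratio was 0.542 and did not pass the critical value. Replicate 5 was high in the mean of cholesterol biosynthesis and uptake (0.674), at 9.03 against 8.87 to 8.92.

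In manganese, replicate 1 was bright in its median intensity (0.677), at 74.57 against 71.01 to 72.16. It was also high for Rpl19 (0.687) and for the means of cytosolic ribosomal proteins (0.712), of inflammatory chemokines and NF-kB targets (0.694) and of the respiratory chain (0.643), and low for Sox9 (0.688) and Gars (0.631). Replicate 2 was high for Ndrg1 (0.657) and Ccrl2 (0.642), replicate 3 low for H3c3 (0.674) and Hdc (0.634), and replicate 6 high for Lamtor1 (0.694) and low for Myl9 (0.685). The part of brightness in these values was not tested.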

How the results depend on the processing

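The median SD was larger in alloy than in manganese under all 25 settings that recompute it, the reported one included. It was 0.223 in alloy under median scaling, 0.268 with no normalisation, 0.183 in alloy and 0.102 in manganese with an offset of 16, and 0.105 in alloy with no filter. With the mean of all probes manganese had 0.0766. The medians were 0.0513 in alloy and 0.0255 in manganese from the authors' normalized probes, and 0.0589 and 0.0315 from their values by gene. Leaving out 1 array gave 0.131 to 0.155 in alloy and 0.0763 to 0.0838 in manganese.

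The count of larger spreads did not hold. It was 650 with no filter, 508 and 516 in the authors' probe and gene tables, 39 with deviations from the median, 4 with squared deviations and 3227 with all 4 groups in the fit. Leaving out 1 array gave 29 to 2114. With the replicate block 681 were larger, of which 654 were among the 1098, and 1 was smaller. Same-numbered arrays of alloy and manganese had correlations of deviations of -0.2 to 0.25, and 1 of 6 alloy arrays correlated best with its own number. These correlations cannot tell whether same-numbered arrays were handled together. Smaller spreads numbered 2 under median scaling, 0 with no normalisation, 5 with cyclic loess, 0 with deviations from the median or squared deviations, 38 with all 4 groups, 1 against control and 4 against iron arrays, and 0 to 16 without 1 array. The counts of 0 had 7 genes at an unadjusted p under 0.05 with no normalisation, 42 with deviations from the median and 57 with squared deviations, and 76 to 110 without 1 array, and the F test called 12. The cause of these movements was not tested, and a fit that leaves out 1 array also holds fewer arrays.

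The first component held 47.3% of the variance under median scaling, where it ranked the arrays 4, 6, 1, 5, 3, 2, and 56.4% to 78.6% without 1 array. The order 3, 1, 4, 2, 6, 5 was kept under every setting with all arrays except median scaling and no normalisation. Pmf1, called steadier in alloy, had a larger alloy SD of 0.194 under median scaling and 0.253 with no normalisation. Leaving out genes with 1 alloy value over 2 log2 units below the others, chosen after seeing the data, gave 1103 larger spreads. The arrays carry no detection p-values here, so dim genes have no measured limit.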

Other observations

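In metal handling and the cytoskeleton, shares called with a larger spread were at or somewhat above the 8.19% of all genes. Of 21 genes of iron uptake, storage and export 2 (9.52%) were called, Hmox1 and Slc11a2, while Tfrc, the transferrin receptor, stayed within 1.41-fold in alloy. Of 17 metallothioneins and zinc or manganese transporters 2 (11.8%) were called, Slc30a4 and Slc30a7, both zinc transporters, at 1.52-fold and 1.31-fold in alloy. Of 19 contractile genes and targets of the serum response factor 3 (15.8%) were called. Beside Ccn2, Actg2, a smooth muscle actin, read 7.52, 6.88, 7.62, 6.73, 6.58 and 6.54 in alloy replicates 1 to 6, against 6.48 to 6.7 in manganese arrays (limma adjusted p = 0.0245), so replicates 3 and 1 were highest. Actn1, an actin crosslinker, was lowest in replicate 3.

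Against 8.19% of all genes, glycolysis had 1 gene of 14 (7.14%) called, Pgam1, a phosphoglycerate mutase. Cholesterol biosynthesis and uptake had 1 of 18 (5.56%), Insig1, which retains the sterol sensor. Of 11 reference genes 1 was called, Tubb5, a tubulin, at 1.51-fold in alloy, and of 21 long or nuclear-retained transcripts Kmt2c was called with a larger spread and Crebbp with a smaller one. Among markers of other cell types 0 of 4 endothelial, 0 of 2 adipocyte, 0 of 5 muscle and 0 of 5 macrophage genes were called with a larger spread. Of 4 osteochondral markers 1 was called, Sox9, and of 9 fibroblast markers 1, Vim. These calls share the dependence on single arrays given for the other lists.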
